A study of Mus musculus with 5 samples.

Results

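Amino acids that are not built into protein lose their nitrogen mainly in the liver. The urea cycle turns the released ammonia into urea, partly in the mitochondria and partly in the cytosol of hepatocytes, and separate enzyme chains feed the carbon skeletons into glucose, ketone bodies or one-carbon units. Many of these enzymes are zonated in the liver lobule: urea cycle and serine enzymes lie mainly near the portal vein, and ornithine aminotransferase lies with glutamine synthesis around the central vein. The 44 genes described here encode urea cycle enzymes and carriers and enzymes of amino acid breakdown. They were taken as a list of names and found on the arrays through the accession of each probe, and 43 of the 44 were tested among 21531 features in all. Tdh, threonine dehydrogenase, was not tested: of its 2 probes, neither exceeded background in a channel on 3 or more of the 5 arrays.

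Fra-1, the product of Fosl1, is a FOS-family partner in AP-1, a dimeric transcription factor. Livers of Fra-1 hep mice, a C57BL/6J line with hepatocyte-restricted overexpression of Fra-1, were set against livers of C57BL/6J wt mice. Animals of either genotype were 26 to 28 weeks old, and their food had supplied 45% of its energy as fat from week 4 of life. There were 4 individual Fra-1hep mice, each on 1 array in Cy5 against a Cy3 pool of 5 control mice, and 1 array with a Fra-1hep pool in Cy3 against the control pool in Cy5 (the swapped pool below). The promoter that drives the transgene, the sex of the mice and the make-up of the Fra-1hep pool are not given in the sources used here. The comparison addresses what Fra-1 overexpression in hepatocytes does to liver transcripts on this diet.

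All values are log2 ratios of Fra-1hep over control. A change is the genotype coefficient of a limma fit over the 4 mice and the swapped pool with a dye term, given ± its moderated standard error, with Benjamini-Hochberg adjusted p-values over all 21531 features and a threshold of 0.05. The swapped pool weighs as much in this coefficient as the 4 mice together, and the spread comes from the mice. Since controls were pooled, the spread among control mice does not enter. From 47.2% to 54.7% of spots were well above background in Cy5 and from 47.7% to 61.5% in Cy3. The single Fosl1 probe exceeded background in 0 of 5 Fra-1hep channels and 1 of 5 control channels, so it could not check the genotype. Of 10 hepatocyte markers 9 were tested, whereas 4 of 6 kidney tubule markers, Umod, Slc12a1, Lrp2 and Kap, were not. An untested marker either failed the filter on dim probes or had no probe under its name, and which of these held was not checked.

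In Fra-1hep livers, genes of amino acid breakdown moved in both directions. Of 43 tested genes, 12 rose, 9 fell and 22 did not pass. In all, 48.8% of the genes passed, where 26.6% of all features passed, 11.2% higher and 15.4% lower. By group, the share was 16.7% for branched-chain, 33.3% for histidine, 37.5% for urea cycle and 40% for aromatic genes. It was 66.7% in each of the other groups, and a group held only 3 to 9 tested genes. Of the 43 genes, 42 exceeded background in both channels on all arrays, as did 18176 of the 21531 features. Among those 18176 features 30.2% passed. Rises and falls balanced, with a median change of -0.02 over the 43 genes, against -0.003 over all features. The median absolute change was 0.22 over the 43 genes, against 0.13 over all features. Of the 21 genes past the threshold, 11 reached 0.5 on the log2 scale (25.6% of the genes, against 7.52% of all features), and 2 (4.65%) reached 2-fold, against 1.85% of all features: Etnppl fell and Csad rose. Of the 21, 17 had 1 sign on all 5 arrays, or 39.5% of the 43 genes, where 22.1% of all features were called with 1 sign. In liver tissue, fewer hepatocytes and less RNA per hepatocyte cannot be told apart.

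**Figure D1:**
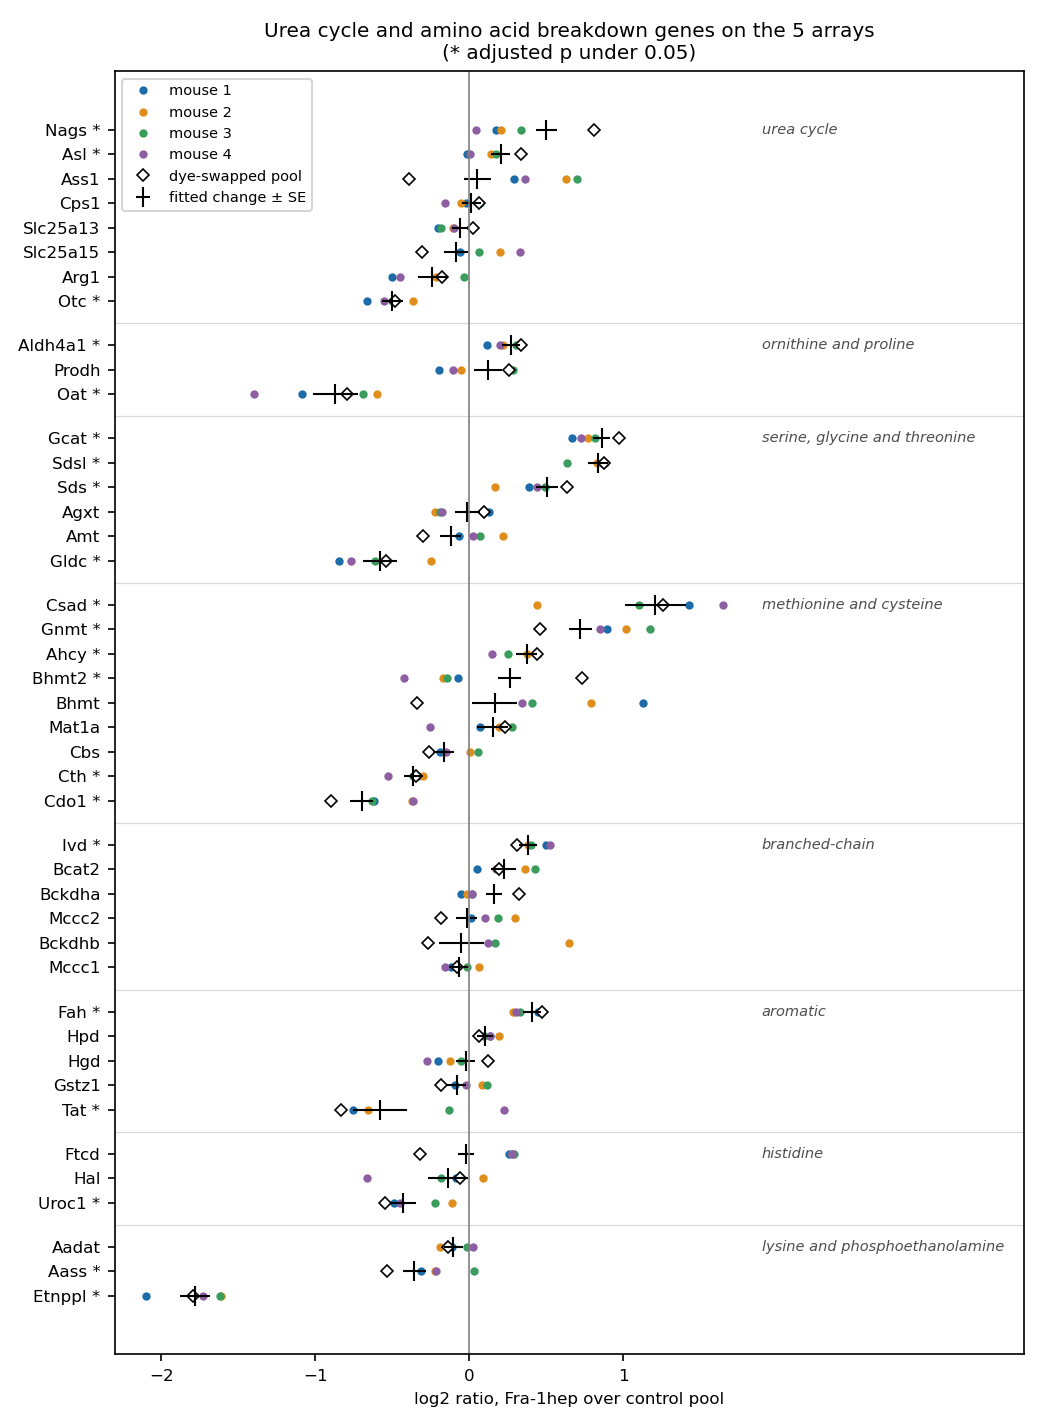
Log2 ratio of Fra-1hep over control (x axis) for each tested gene, grouped by amino acid. Coloured points are the 4 mice, open diamonds the dye-swapped pool, and vertical ticks with bars the fitted change ± SE; stars mark an adjusted p under 0.05. Etnppl lies near -1.8 on every array, while Ass1, Bhmt and Ftcd have mice and swapped pool on opposite sides of 0.

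Etnppl, which encodes the enzyme that breaks phosphoethanolamine into acetaldehyde, ammonia and phosphate, had the largest change among the 43. Its ratios were -2.10, -1.61, -1.62 and -1.73 in mice 1 to 4 and -1.79 on the swapped array. All 5 arrays were low, and the pool lay within the range of the mice. The change was -1.78 ± 0.10, a 3.43-fold fall (adjusted p = 7.26e-05). The RefSeq promoter window of Etnppl, from 250 bases before to 50 after one of its 2 listed start sites (GRCm38.p6, chr3:130617198-130617497, plus strand), is shown because this gene changed most. It is in lower case throughout, since none of the motifs searched below occurred in it.
Etnppl: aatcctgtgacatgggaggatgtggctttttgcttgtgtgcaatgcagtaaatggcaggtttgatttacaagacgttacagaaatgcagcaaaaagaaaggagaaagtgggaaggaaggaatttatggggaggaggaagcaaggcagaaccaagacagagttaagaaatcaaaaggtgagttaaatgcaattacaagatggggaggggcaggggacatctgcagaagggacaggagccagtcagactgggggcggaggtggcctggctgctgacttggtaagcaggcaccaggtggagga

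In the urea cycle, 2 of 8 genes rose, 1 fell and 5 did not pass. Otc, which joins carbamoyl phosphate to ornithine in the mitochondrion, had ratios of -0.66, -0.36, -0.50 and -0.55 in the mice and -0.48 on the swapped array. All arrays were below 0, and the change was -0.50 ± 0.07, 1.41-fold lower (adjusted p = 0.00295). A second Otc probe gave a smaller value, -0.28 ± 0.06. Nags makes N-acetylglutamate, the activator that carbamoyl phosphate synthetase needs, and rose by 0.50 ± 0.07 (adjusted p = 0.00277). Its mice were only slightly high, at 0.17, 0.21, 0.33 and 0.04, while the swapped pool stood at 0.81. The mice alone averaged 0.19, so the size of the Nags change rests mainly on the swapped pool. Asl, argininosuccinate lyase, was called at 0.21 ± 0.06 (adjusted p = 0.0479) with ratios of -0.02, 0.14, 0.17 and 0.002 in the mice and 0.34 in the pool, and the call ended in 11 of 17 other settings. Without the swapped pool Asl lay at 0.08.

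Cps1, carbamoyl phosphate synthetase and the entry to the cycle, was the gene nearest to 0 in this group. Its change was 0.01 with a 95% confidence interval of -0.13 to 0.16, and its ratios ran from -0.16 to 0.07 over the 5 arrays. Arg1, the arginase that releases urea, was below 0 on all arrays, between -0.50 and -0.04 in the mice and at -0.18 in the pool, and did not pass (-0.24 ± 0.09, adjusted p = 0.101). The carrier genes Slc25a15, which exchanges ornithine and citrulline, and Slc25a13, which brings out aspartate, gave -0.09 and -0.06 and did not pass. Ass1, which joins citrulline to aspartate, also did not pass (0.05 ± 0.09, adjusted p = 0.701), but its arrays did not lie near 0. The mice had 0.29, 0.63, 0.70 and 0.36 and the swapped array -0.39, and its second probe showed the same split, with 0.18 to 0.68 in the mice and -0.18 in the pool.

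Oat turns ornithine into a precursor of glutamate and proline. It had ratios of -1.08, -0.60, -0.69 and -1.40 in the mice and -0.79 on the swapped array. Every array was low, mice 1 and 4 most, and Oat fell by 0.87 (SE 0.14), 1.83-fold (adjusted p = 0.00637). Of the 2 proline breakdown genes, 1 rose and 1 did not pass. Aldh4a1, the second enzyme of that route, rose by 0.27 ± 0.06 with 0.12, 0.22, 0.30 and 0.20 in the mice and 0.34 in the pool (adjusted p = 0.0154). Prodh, the first, had -0.20, -0.05, 0.28 and -0.11 in the mice and 0.26 in the pool and did not pass (0.12 ± 0.09, adjusted p = 0.373).

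Of 6 tested genes of serine, glycine and threonine breakdown, 3 rose (Gcat, Sds and Sdsl), 1 fell (Gldc) and 2 did not pass. Gcat, which splits the product of threonine oxidation into glycine and acetyl-CoA, had 0.67, 0.77, 0.82 and 0.72 in the mice and 0.97 in the pool. These 5 values lay close together, and the change was 0.86 ± 0.06, 1.81-fold higher (adjusted p = 0.000138). Serine dehydratase, Sds, takes serine to pyruvate, and Sdsl encodes a related dehydratase. Sdsl had 0.86, 0.83, 0.64 and 0.88 in the mice and 0.87 in the pool (0.84 ± 0.07, 1.79-fold, adjusted p = 0.000329). Sds had 0.39, 0.17, 0.49 and 0.44 in the mice and 0.63 in the pool (0.50 ± 0.07, 1.42-fold, adjusted p = 0.00377). The genes are neighbours on mouse chromosome 5, and both were high on all 5 arrays. Without probe sequences, cross-hybridisation between these relatives was not tested.

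Gldc encodes the glycine decarboxylase of the mitochondrial glycine cleavage system. It had -0.84, -0.25, -0.61 and -0.77 in the mice and -0.54 in the pool, low on all arrays and least so in mouse 2. The change was -0.58 ± 0.11, 1.49-fold lower (adjusted p = 0.00994). Amt, the aminomethyltransferase of the same system, did not pass (-0.12 ± 0.07, adjusted p = 0.228), with -0.07, 0.22, 0.07 and 0.02 in the mice and -0.30 in the pool. Agxt, which detoxifies glyoxylate by turning it into glycine, was at -0.01 with an interval of -0.20 to 0.17, with 0.13, -0.22, -0.19 and -0.18 in the mice and 0.09 in the pool.

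The methionine and cysteine group held the largest rise, with 4 of 9 genes called higher, 2 lower and 3 not passing. Of the 4, Bhmt2 was below 0 in all mice, so its direction is not settled. Csad makes hypotaurine from the product of cysteine dioxygenase on the way to taurine. It had 1.43, 0.44, 1.10 and 1.65 in the mice and 1.26 in the pool, high on all arrays but with mouse 2 well below the others. The change was 1.21 ± 0.20, 2.31-fold higher (adjusted p = 0.00616). Cdo1, the cysteine dioxygenase that supplies Csad with substrate, went the other way. Its ratios were -0.62, -0.37, -0.63 and -0.37 in the mice and -0.90 in the pool, all low, and it fell by 0.70 (SE 0.07), 1.62-fold (adjusted p = 0.00108). Cth, which releases cysteine from cystathionine, also fell, with -0.34, -0.30, -0.37 and -0.53 in the mice and -0.35 in the pool (-0.36 ± 0.06, adjusted p = 0.00717). A second Cth probe gave -0.35 ± 0.07. Cbs, the step before it, did not pass (-0.17 ± 0.07, adjusted p = 0.111).

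Upstream of cysteine, Mat1a turns methionine into S-adenosylmethionine, which Gnmt uses to methylate glycine. Ahcy clears the S-adenosylhomocysteine that this step leaves. Gnmt had 0.89, 1.02, 1.17 and 0.85 in the mice and 0.46 in the pool, high on all arrays and lower in the pool than in any mouse. The change was 0.72 ± 0.07, 1.65-fold higher (adjusted p = 0.000988). Ahcy had 0.45, 0.37, 0.25 and 0.15 in the mice and 0.44 in the pool (0.37 ± 0.07, adjusted p = 0.01), and its second probe gave 0.46 ± 0.06. Mat1a did not pass (0.15 ± 0.10, adjusted p = 0.3), with ratios from -0.25 to 0.28 over the 5 arrays.

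Bhmt and Bhmt2 remethylate homocysteine and lie next to each other on chromosome 13, and their direction could not be settled. They are described here because of their values, outside the rule for naming genes. Bhmt had 1.13, 0.79, 0.40 and 0.34 in the mice and -0.34 on the swapped array, and did not pass (0.16 ± 0.14, adjusted p = 0.435). Its other 2 probes were also above 0 in all mice, at 0.08 to 0.90, with 0.06 and -0.09 in the pool. Bhmt2 ran the opposite way, at -0.08, -0.17, -0.15 and -0.42 in the mice against 0.73 in the pool. It was called higher at 0.26 ± 0.08 (adjusted p = 0.0406) although all 4 mice were below 0. Without the swapped pool its value was -0.20 and did not pass (adjusted p = 0.0526).

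In the branched-chain group, 1 of 6 genes rose and 5 did not pass (16.7% past the threshold, against 26.6% of all features). Ivd, the isovaleryl-CoA dehydrogenase of leucine breakdown, had 0.50, 0.38, 0.40 and 0.53 in the mice and 0.31 in the pool, which were all high (0.38 ± 0.06, 1.30-fold, adjusted p = 0.00438). Bckdha, a subunit of the dehydrogenase that commits all 3 branched-chain amino acids to breakdown, had -0.05, -0.01, 0.02 and 0.01 in the mice and 0.33 in the pool and did not pass (0.16 ± 0.05, adjusted p = 0.0639). Bcat2, the aminotransferase of the first step, was above 0 on all arrays and did not pass (0.22 ± 0.08, adjusted p = 0.0826). Without mouse 1 it did (0.26, adjusted p = 0.0406). Bckdhb, Mccc1 and Mccc2 lay between -0.07 and -0.02.

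Among enzymes of phenylalanine and tyrosine breakdown, 1 of 5 genes rose, 1 fell and 3 did not pass. Fah, which cleaves fumarylacetoacetate in the last step, had 0.45, 0.29, 0.33 and 0.31 in the mice and 0.47 in the pool, all high (0.41 ± 0.06, 1.32-fold, adjusted p = 0.00346). Tat, the tyrosine aminotransferase of the first step and a classic glucocorticoid-responsive gene, varied most between mice after Csad. It had -0.75, -0.66, -0.13 and 0.22 in the mice and -0.83 in the pool, so mouse 4 was on the other side of 0. Its call at -0.58 ± 0.18 (adjusted p = 0.0488) ended in 13 of 17 other settings, and the mice alone averaged -0.33. Hpd, which acts between them, had 0.14, 0.19, 0.10 and 0.13 in the mice and 0.06 in the pool and did not pass (0.10 ± 0.05, adjusted p = 0.199). Hgd and Gstz1 were at -0.02 and -0.08 and did not pass.

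Of 3 histidine genes, Uroc1, the urocanate hydratase, fell. It had -0.49, -0.11, -0.22 and -0.45 in the mice and -0.54 in the pool, low on all arrays (-0.43 ± 0.08, 1.35-fold lower, adjusted p = 0.0109). Hal, histidine ammonia lyase, had -0.09, 0.09, -0.18 and -0.66 in the mice and -0.06 in the pool and did not pass (-0.14 ± 0.13, adjusted p = 0.466). Ftcd, which passes the formimino group of histidine to folate, was again a split gene, with 0.26, 0.27, 0.29 and 0.28 in the mice and -0.32 in the pool. Its fitted change was -0.02 ± 0.05.

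In lysine breakdown, Aass, the bifunctional enzyme of the first 2 steps, fell by 0.36 (SE 0.07, adjusted p = 0.0137). It had -0.31, -0.22, 0.03 and -0.21 in the mice and -0.53 in the pool, and the mice alone averaged -0.18 and did not pass (adjusted p = 0.0723). Aadat, the aminoadipate aminotransferase, did not pass (-0.11 ± 0.06, adjusted p = 0.247), with -0.11, -0.19, -0.01 and 0.02 in the mice and -0.14 in the pool. It was the 1 tested gene near background, with the Fra-1hep channel well above it on 1 of 5 arrays and the control channel on 4.

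In 7 of the 43 genes (16.3%) all 4 mice were on one side of 0 and the swapped pool on the other, which is near the 16.4% of all features. They were Ass1, Slc25a13, Bhmt, Bhmt2, Mccc2, Hgd and Ftcd. The median ratio of the hepatocyte markers was split in the same way, at 0.49 to 0.59 in the mice and -0.31 in the pool. Not every marker was split: Ahsg was above 0 on all 5 arrays and rose by 0.71, and Hnf4a and Apoa1 had mice on both sides of 0. Of the 9 tested markers, 1 rose and 8 did not pass. The summed normalized intensity of the 9 markers ran from 734415 to 1182645 in Fra-1hep channels and from 654557 to 971095 in control channels. Whether dye, the swapped array or the make-up of its Fra-1hep pool sets these genes apart cannot be told apart with 1 swapped array.

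**Figure D2:**
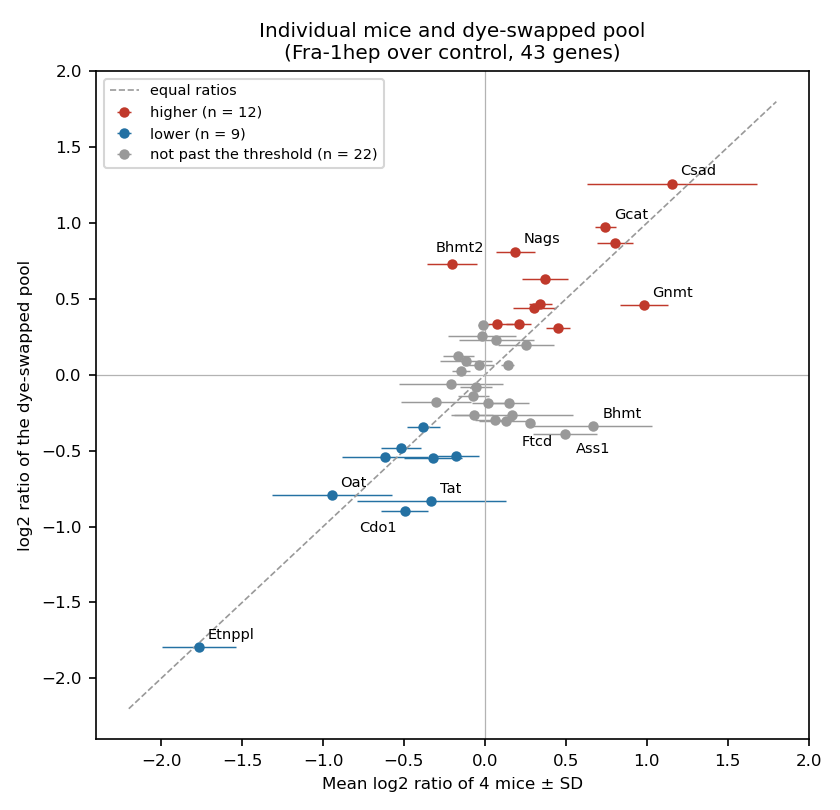
Mean log2 ratio of the 4 mice ± SD (x axis) against the log2 ratio of the dye-swapped pool (y axis) for the 43 tested genes, coloured by call. Etnppl, Csad and Oat lie near the line of equal ratios, whereas Bhmt2 lies in the upper left and Bhmt, Ass1 and Ftcd in the lower right corner.

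The mice also differed in how far they moved. Over the 17 called genes with 1 sign on all arrays, mouse 2 was nearest to 0 in 10 and farthest in 0. The median absolute ratio over these genes was 0.62 in mouse 1, 0.37 in mouse 2, 0.50 in mouse 3 and 0.53 in mouse 4. Markers of other cells differed in mouse 2 as well. The median ratio of 6 of 7 neutrophil markers was 3.52 in mouse 2, 1.88 to 2.18 in the other mice and 2.69 in the pool, and 5 of the 6 rose. Their summed intensity ran from 44091 to 78046 in Fra-1hep channels and from 27002 to 32528 in control channels, and Ly6g was not tested. Csf3r, the marker that did not pass (-0.12), made up most of the control sums. Its mean log2 level in control channels was 14.56, against 11.56 for the next brightest, S100a9. For 9 of 10 macrophage markers the median was -0.11 in mouse 2 and -0.95 to -0.90 in the other mice, with sums of 22884 to 55175 in Fra-1hep and 48927 to 62470 in control channels. The macrophage markers did not move as 1 set: 0 rose, 4 fell and 5 did not pass. Those 5 were Marco (-0.78), Csf1r (-0.54), Vsig4 (0.05), Clec4f (0.07) and Timd4 (0.13). The part of neutrophils and macrophages in the ratios of the breakdown genes was not tested. Endothelial markers fell in 4 of 8, stellate and fibroblast markers in 5 of 8 and lymphocyte markers in 3 of 6, and 0 of 5 cholangiocyte markers passed. Among all features, 11.2% rose and 15.4% fell. Without mouse 2, 10 of the 43 genes rose and 8 fell, where 25.4% of all features passed.

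Other enzymes of the same pathways, 57 listed and 52 tested, changed to a similar extent, with 12 higher, 10 lower and 30 not passing. That is 42.3% past the threshold, against 26.6% of all features, and their median was 0.03. Grhpr, which reduces glyoxylate, rose by 0.66 ± 0.05 (adjusted p = 0.000415), and Amdhd1, which follows Uroc1 in histidine breakdown, fell by 0.53 (SE 0.05, adjusted p = 0.000985). Further genes are named after their values were seen. Shmt1 and Shmt2, which interconvert serine and glycine, rose by 0.53 and 0.47, and Qdpr, which regenerates tetrahydrobiopterin, rose by 0.63. Among the 10 falls were Hao1 (-0.48), Chdh (-0.32), Suox (-0.31) and Dld (-0.28). With the spread of the control pool added, 10 of the 52 rose and 4 fell, where 13.3% of all features passed.

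**Figure D3:**
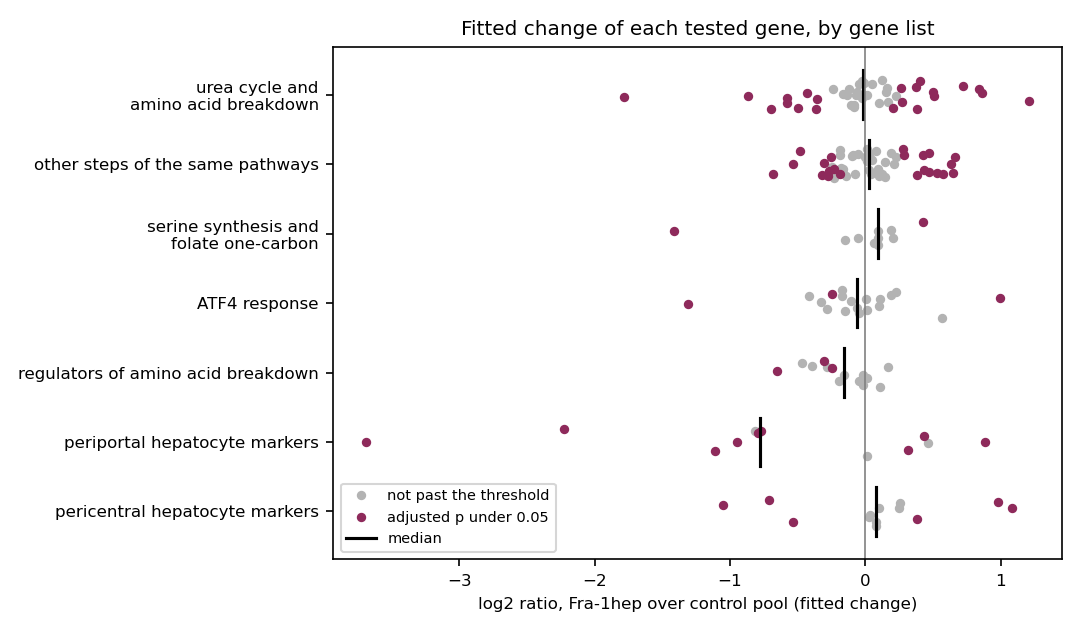
Fitted log2 change of Fra-1hep over control (x axis) for every tested gene of each list, with the median as a bar and genes past the threshold in dark colour. Medians lie near 0 for amino acid breakdown and the other steps of its pathways, and at -0.78 for periportal markers.

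Of 10 tested serine synthesis and folate one-carbon genes, 1 rose, 1 fell and 8 did not pass (20% past the threshold, against 26.6% of all features). Mthfd1l, of mitochondrial formate production, fell by 1.42 (SE 0.10, adjusted p = 0.000241). Its cytosolic counterpart Mthfd1 rose by 0.42 ± 0.06 (adjusted p = 0.00265), with a mean of 0.17 in the mice and 0.68 in the pool. Targets of ATF4, the transcription factor of the amino acid response, had 1 of 19 higher, 2 lower and 16 not passing (15.8% past the threshold). Vldlr rose by 0.99 ± 0.06, and Nupr1 (-1.31 ± 0.09) and Cebpg (-0.25 ± 0.06) fell.

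Of 15 regulators of amino acid breakdown, 0 rose, 3 fell and 12 did not pass (20% past the threshold, against 26.6% of all features). Ppargc1a, a coactivator of gluconeogenic genes, fell by 0.65 (SE 0.08, adjusted p = 0.00159), with a mean of -0.27 in the mice and -1.03 in the pool. Sirt5, the deacylase that acts on Cps1, fell by 0.25 (SE 0.06), and Nr1i2, the xenobiotic receptor PXR, fell by 0.31 (SE 0.09), with a mean of -0.47 in the mice.

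Zonation markers split within each zone. Of 12 periportal markers, 3 rose, 6 fell and 3 did not pass, led by Hsd17b6 (-3.69), Igfbp2 (-2.22) and Sult5a1 (-0.95). The median over the 12 was -0.78, and 75% passed, against 26.6% of all features. Of 13 tested pericentral markers, 3 rose, 3 fell and 7 did not pass (46.2% past the threshold). Cyp2c29 rose by 1.09, Glul, glutamine synthetase, fell by 1.05 and Slc13a3 fell by 0.54. The median over the 13 was 0.08.

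RefSeq promoter windows (GRCm38.p6) were matched for 35 of the 44 genes and searched on both strands for 3 motifs, with all listed start sites of a gene counted together. TGANTCA, the usual AP-1 letters TGACTCA and TGAGTCA with any middle base allowed, occurred in 4 of 35 genes (11.4%). It occurred in 2425 of 27025 genes with a window (8.97%). TGACGTCA, the cyclic AMP response letters, occurred in 0 of 35 against 2.03%, and TGATGNAA, letters read by C/EBP and ATF dimers, in 0 of 35 against 4.51%. The motifs do not overlap in the 4 windows with a match. They are shown with 10 bases on either side, the match in capitals, because AP-1 is the complex that Fra-1 joins. Of the 4 genes, Ahcy rose and the other 3 did not pass. Ahcy and Hal hold TGATTCA, and only Hpd and Slc25a13 hold the usual letters. Relative to the start site, the match began at -198 in Ahcy (chr2:155074679-155074705, minus strand), -239 in Hal (chr10:93488519-93488545, plus strand), -139 in Hpd (chr5:123182846-123182872, minus strand) and -130 in Slc25a13 (chr6:6217287-6217313, minus strand). A match is a description of letters only.
Ahcy: ttttgacctcTGATTCActggctggac
Hal: caagctacggTGATTCAtgtgtctaaa
Hpd: tgcccagagcTGACTCAggggttccca
Slc25a13: cagcacagtcTGAGTCAcgtgtcctgg

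The 21 calls differed in how firmly they stood. Etnppl, Csad, Oat, Gcat, Sdsl, Gnmt and Cdo1 kept sign and call in all 17 other settings, among them each mouse left out, no swapped pool, the deposited ratios and a minimum change of 1.2-fold. Bhmt2, Asl and Tat kept them in 6, 6 and 4. The 17 settings are not independent: the slide as a block equals leaving out mouse 1, and the deposited ratios nearly repeat the processed signals.

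**Figure D4:**
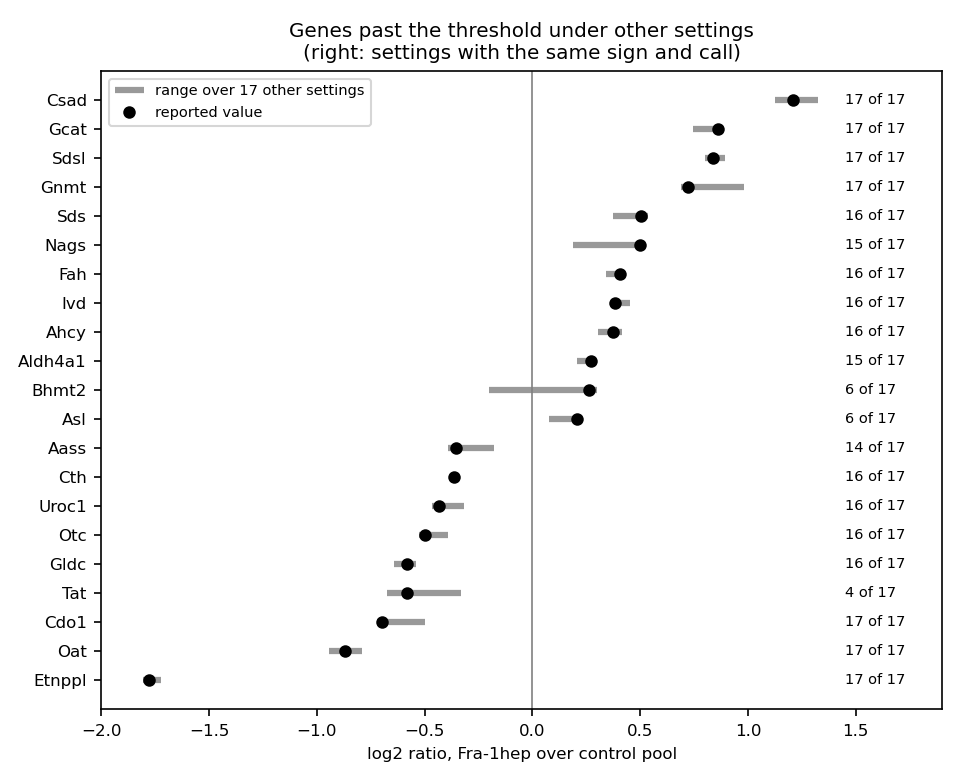
Reported log2 change of the 21 genes past the threshold (points) with the range over 17 other settings (bars), and at the right the number of settings with the same sign and call. Bhmt2 alone has a range that crosses 0.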

How the data were processed

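Per the file headers, the authors extracted spot intensities with Agilent Feature Extraction 10.7.3.1 (10.7 per the submitters' processing notes), which also gave processed intensities, log10 ratios (Cy5 over Cy3) and flags of 0 or 1. The deposited series table holds log2 ratios, whose slopes on the scanner ratios over 23068 probes were 1.00 (mice) and -1.00 (swapped array), so its sign is Fra-1hep over control. Column medians were 0.13, 0.08, 0.04, 0.13 and -0.04, so they were not centred. Labelling used 100 ng of RNA with integrity above 7.8, per the labels' protocols.

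Local background was removed from median signals by normexp (offset 50), and signals were loess-normalized within arrays in limma 3.58.1 (R 4.3.3). Control spots and outlier spots (3 to 92 per array) had weight 0, and 0 spots were saturated. Of 55681 probes, 26056 were named by unversioned accession through a RefSeq table of GRCm38.p6 (19752 genes). The filter kept 28115 probes that exceeded background in 1 channel or both on 3 or more arrays, and each gene was represented by its brightest such probe. The fit had 3 residual and 4.02 prior degrees of freedom. It was tested on simulated ratios for 21531 features, with 100 features changed at each size. There, 57% of changes of 0.5 and 88% of changes of 1 on the log2 scale were recovered, with 4 false calls among 149. In the data 26.6% of features passed, far more than were changed in the simulation, so these rates need not hold for the data. The number of arrays limits the precision (median SE 0.070).

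Mouse 1 was on slide 1, scan 1, and the other 4 arrays on slide 2, scan 2. The members and lists were chosen with earlier results of these data known. Ratios per array are given for members past the threshold at 0.5 or more, and for up to 2 further members of each amino acid group by p; of each other list, up to 3 genes by p. Other genes were chosen after their values were seen, and some genes of the other lists are not reported here. Alternatives changed the dye term, arrays used, background, normalization, filter, probe choice, weights and minimum change.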

Additional observations from a re-analysis of the deposited data

Results flagged for a closer look

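In Agxt, mouse 1 stood apart from the other mice, at 0.13 against -0.22 to -0.18, a gap that made up 0.88 of the range of the 4 mice. Of 43 genes tested this way 1 was marked, and chance marks about 1 in 20.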

How the results depend on the processing

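Over 17 other settings, the number of members that rose stayed between 9 and 14 and the number that fell between 7 and 9, except against a minimum change of 1.2-fold, where 4 rose and 3 fell. The share of all features past the threshold was 4.89% against that minimum change and ran from 13.3% to 35.9% in the other settings. The median of the members stayed between -0.02 and 0.04. Bhmt2 turned to -0.016 with the swapped array turned and no dye term and to -0.20 without that array, and Ftcd turned to 0.28 and passed without it (adjusted p = 0.00418). Ass1 (0.50) and Bhmt (0.67) also passed without the swapped array, as the values of the mice show. With the spread of the control pool added, the calls of Asl, Aldh4a1, Bhmt2, Tat and Aass ended. Mouse 1 alone was on its slide, so the slide as a block equals leaving out mouse 1. That gave 12 rises and 8 falls, with 25.5% of all features past the threshold.

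Of the other steps of the pathways, 17 fell without the swapped array, 6 with processed signals or deposited ratios and 4 with the pool's spread, against 10. The share of all features past the threshold moved the same way, at 35.9%, 22.1% and 13.3% in these settings, against 26.6%. Against the minimum change of 1.2-fold, 4 of the other steps rose and 2 fell, where 4.89% of all features passed. Serine and one-carbon rises numbered 0 to 3 and falls 1 or 2. ATF4 targets had up to 4 rises and from 1 to 7 falls, regulators from 1 to 5 falls (5 without the swapped array and 5 without mouse 4) and up to 1 rise, and pericentral markers from 1 to 5 rises. The causes were not tested. No paired analysis was possible because every array carries the same control pool, and the swapped pool, a single sample whose number 1 only names it, shares fewer than 2 numbers with the mice. Signal over background limits 1 tested member, Aadat.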
